A study of Homo sapiens with 2 samples.

Results

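Interferon-induced genes are the transcripts that cells raise when interferon, a secreted alarm protein of antiviral defense, binds its receptor. The set described here comprises 33 genes, chosen by symbol from a list of interferon response genes, and all 33 were found among the 36601 genes of both count matrices. The transcripts of single cells were counted in LNCaP_C4-2B, a strain that was raised from LNCaP in mice and is resistant to castration, and in LNCaP_FGC, the standard LNCaP prostate carcinoma line, which had never been cloned. Both were grown in RPMI1640 with serum and antibiotic and received no interferon or other treatment, so every level below is a steady-state level. Each line was 1 library of 1850 cells and carried its own batch label, and strain and batch cannot be told apart.

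Interferons α and β bind a receptor of IFNAR1 and IFNAR2, which activates the kinases JAK1 and TYK2. These phosphorylate STAT2, which joins a complex with IRF9 that enters the nucleus and binds a DNA element called the interferon-stimulated response element (ISRE). Viral RNA inside a cell is sensed by the products of *DDX58* (RIG-I) and *IFIH1* (MDA5), which signal through MAVS to IRF3 and IRF7. LNCaP cells are known for a defective JAK1 and a weak response to added interferon. Type II interferon acts through JAK1 and JAK2, and its target genes carry another element, the gamma-activated site (GAS).

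The promoters of many members carry the letters of the ISRE. In RefSeq promoters on GRCh38.p14, each 250 bases before to 50 bases after a transcript start, 26 of the 33 members had an entry. The letters GAAANNGAAA, searched on both strands, were found in 16 of these 26 genes (61.5%), against 4.38% of 27305 genes. The letters TTCNNNGAA of the GAS were found in 8 of the 26 (30.8%), against 9.38% of all genes. The 2 motifs were counted separately and may overlap. The windows below belong to 9 members on which the results turn, with the ISRE letters in capitals and 15 bases to each side, each read 5′ to 3′ on the strand of its gene.
ISG20: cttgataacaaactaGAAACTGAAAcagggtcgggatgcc
ISG15: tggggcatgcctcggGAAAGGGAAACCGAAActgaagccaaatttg
IFITM1: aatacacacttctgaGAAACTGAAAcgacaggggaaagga
IFITM3: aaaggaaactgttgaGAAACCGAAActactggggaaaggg
BST2: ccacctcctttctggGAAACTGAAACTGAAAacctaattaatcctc
OAS3: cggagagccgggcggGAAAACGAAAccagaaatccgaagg
IFI6: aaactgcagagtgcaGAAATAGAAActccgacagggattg
IFIT3: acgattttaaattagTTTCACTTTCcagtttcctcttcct
IFI44L: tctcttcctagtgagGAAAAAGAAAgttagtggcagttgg

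These windows lie at chr15:88638932-88638971 (ISG20, plus strand), chr1:1013369-1013414 (ISG15, plus), chr11:314019-314058 (IFITM1, plus), chr11:320871-320910 (IFITM3, minus) and chr19:17405730-17405775 (BST2, minus). The others lie at chr12:112938447-112938486 (OAS3, plus), chr1:27672261-27672300 (IFI6, minus), chr10:89327860-89327899 (IFIT3, plus) and chr1:78620360-78620399 (IFI44L, plus). Only the last match along the strand of the gene is shown for each. IFI6 held 3 separate matches in this promoter, and IFITM1, IFITM3, OAS3, IFIT3 and IFI44L held 2 each. The match shown for ISG15 and for BST2 is 2 overlapping copies of the letters, and the match shown for IFIT3 lies on the opposite strand. The letters were not in this window of *ADAR*, *DDX58*, *IFI35*, *IRF1*, *IRF9*, *JAK1*, *OAS1*, *SP100*, *STAT2* or *UBE2L6*. *IFIT2*, *IFITM2*, *IRF3*, *IRF7*, *LY6E*, *OAS2* and *TRIM22* had no entry. A match is a description of the letters and not a bound site.

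The libraries totaled 35149989 unique molecular identifiers (UMIs) in LNCaP_C4-2B and 35150013 UMIs in LNCaP_FGC, after the authors had thinned both to the same mean per cell. Levels are given as CPM, UMIs scaled to a common library total, in which 1 UMI was 0.0284 CPM. Because the chemistry counts 3′ ends, UMIs do not scale with transcript length, and levels are set side by side between genes without a correction for length. Differences between genes in capture and in the assignment of reads were not tested. Mitochondrial transcripts took 8.35% of UMIs in LNCaP_C4-2B and 6.27% in LNCaP_FGC, and ribosomal protein transcripts took 28.2% in LNCaP_C4-2B and 23.2% in LNCaP_FGC. The 9 luminal prostate markers summed to 5309 CPM in LNCaP_C4-2B and 2514 CPM in LNCaP_FGC. Immune markers were near 0 in both: the 10 of them summed to 3 UMIs in LNCaP_C4-2B, with 8 of the 10 at 0, and to 8 UMIs in LNCaP_FGC, with 6 at 0. The 9 stromal and vessel markers summed to 89 UMIs (2.53 CPM) in LNCaP_C4-2B, with 5 at 0, and to 905 UMIs (25.7 CPM) in LNCaP_FGC, with 3 at 0, of which *ACTA2* gave 20 UMIs in LNCaP_C4-2B and 600 in LNCaP_FGC. *DCN*, *COL1A2* and *CDH5* were at 0 in both, and the part of these markers in the members' values was not tested. No barcode was shared between the libraries (0 shared). Each library holds a single cell type, so the share of UMIs that came from free RNA could not be estimated. The intervals below are exact 95% intervals that cover counting error only, and with 1 library per line no test between the lines was possible.

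A few members made up most of the summed RNA of the set. The 33 members summed to 17873 UMIs (508 CPM) in LNCaP_C4-2B and 21456 UMIs (610 CPM) in LNCaP_FGC, and the 6 highest members held 75.5% of the sum in LNCaP_C4-2B and 77.3% in LNCaP_FGC. Only 8 members reached 20 CPM in the higher library, namely *ADAR*, *LY6E*, *ISG15*, *IRF3*, *IFITM3*, *IFITM2*, *ISG20* and *EIF2AK2*. Another 16 had 1 to 20 CPM in the higher library and 9 stayed under 1 CPM in both. Those 9 included antiviral genes that rise most steeply upon interferon treatment in responsive cells: *IFIT1*, *IFIT2*, *IFIT3*, *OAS1*, *OAS2*, *IFI44L* and *IFI27*, and with them *IFITM1* and *TRIM22*. The median member had 1.76 CPM in LNCaP_C4-2B and 4.38 CPM in LNCaP_FGC, whereas genes that reached 10 UMIs over both libraries had medians of 6.60 CPM in LNCaP_C4-2B and 9.16 CPM in LNCaP_FGC.

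**Figure D1:**
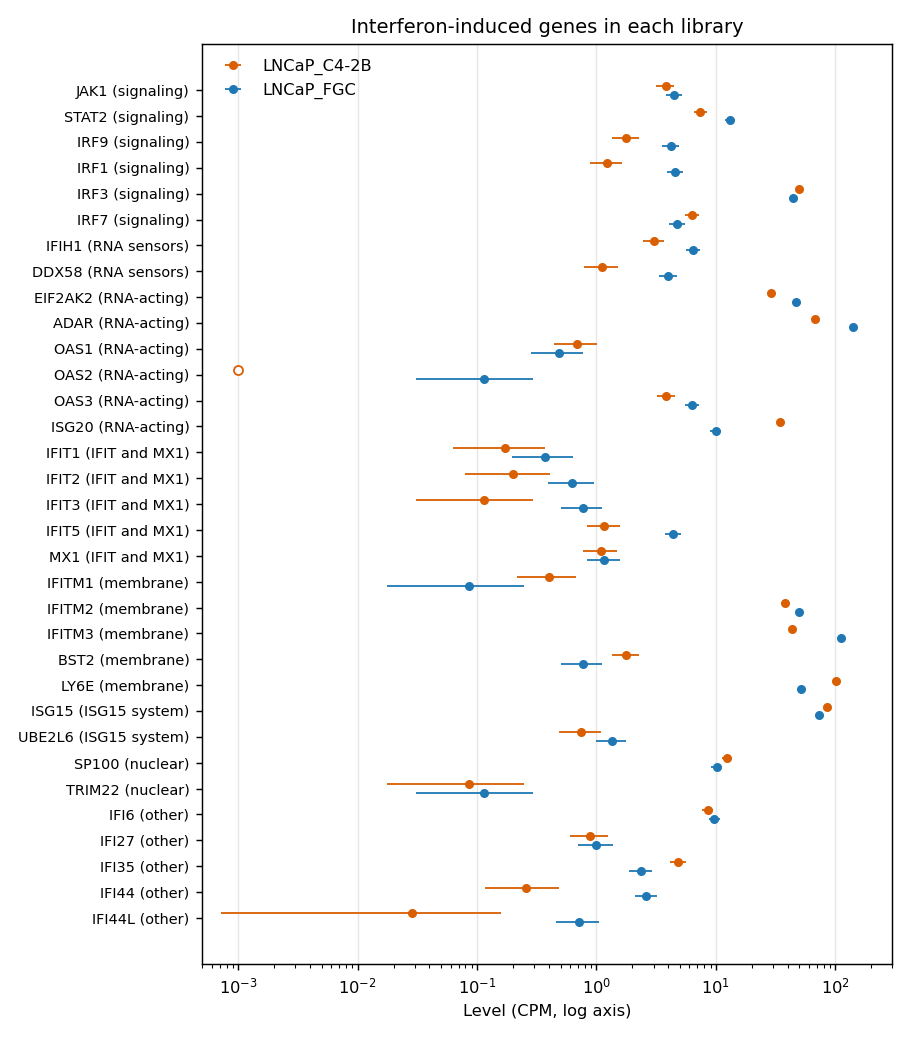
Level of each of the 33 interferon-induced genes, in CPM on a log axis, in LNCaP_C4-2B (orange) and LNCaP_FGC (blue), with exact 95% Poisson intervals. The open circle marks a gene at 0 UMIs (OAS2 in LNCaP_C4-2B) and is placed at the left edge, since a log axis has no 0. ADAR, ISG15, LY6E and IFITM3 lie near 100 CPM in at least one line, and IFI44L had 0.0284 CPM in LNCaP_C4-2B and 0.711 CPM in LNCaP_FGC.

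Between the lines the set split rather than moving together. The log2 ratio of LNCaP_C4-2B over LNCaP_FGC was -0.49 for the median gene by CPM, which became -0.33 without ribosomal protein and mitochondrial genes, -0.02 by median-of-ratios factors and -0.002 by TMM factors, so a member was called higher or lower when it lay at least 1.5-fold from the median gene. Of the 31 members with at least 10 UMIs, 10 were higher, 11 were lower and 10 lay within this range. Over all 17897 genes, 26.0% were higher and 26.4% were lower by the same rule. The members were thus called only somewhat more often than genes at large, in both directions, and their median log2 ratio was -0.20 relative to the median gene. By CPM alone 23 members were lower and 10 were higher in LNCaP_C4-2B. *JAK1*, *MX1*, *IFITM2*, *IFI6* and *IFI27* were lower by CPM but lay above the median gene, and all 5 of them were within the range.

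**Figure D2:**
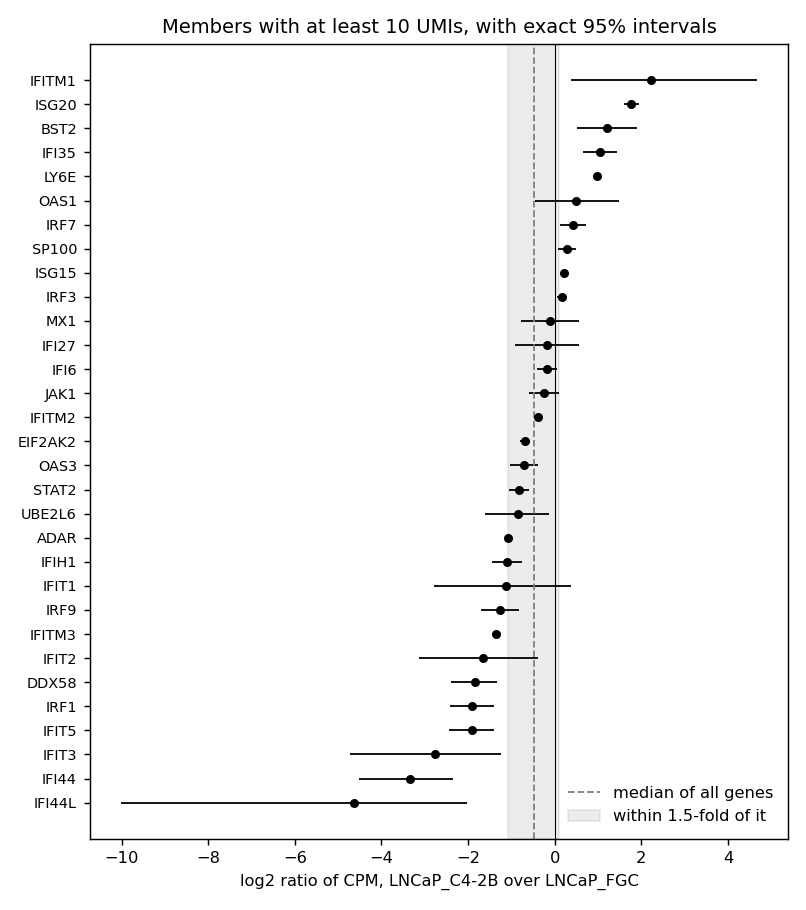
CPM in LNCaP_C4-2B over CPM in LNCaP_FGC, as a log2 ratio, for the 31 members with at least 10 UMIs, with exact 95% intervals. The dashed line marks the median of all genes at -0.49 and the gray band lies within 1.5-fold of it; 10 members lie to the right of the band, 11 to its left and 10 inside it.

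Of the 6 signaling members, 2 were higher, 2 were lower and 2 lay within the range. *IRF3*, which carries the first signal from the RNA sensors, had 1729 UMIs (49.2 CPM) in LNCaP_C4-2B and 1549 UMIs (44.1 CPM) in LNCaP_FGC, a ratio of 1.12 (1.04 to 1.20). *IRF7*, which amplifies that signal, had 6.34 CPM in LNCaP_C4-2B and 4.72 CPM in LNCaP_FGC. Both were higher than the median gene by the 1.5-fold rule, *IRF3* narrowly with a log2 ratio of 0.64 relative to it. *IRF9*, the DNA-binding subunit of the STAT complex, was lower with 1.76 CPM in LNCaP_C4-2B and 4.21 CPM in LNCaP_FGC, and so was *IRF1*, a transcription factor of the interferon γ response, with 1.22 CPM in LNCaP_C4-2B and 4.58 CPM in LNCaP_FGC. *STAT2* had 7.40 CPM in LNCaP_C4-2B and 13.1 CPM in LNCaP_FGC and *JAK1* had 3.78 CPM in LNCaP_C4-2B and 4.47 CPM in LNCaP_FGC, and neither left the range around the median gene.

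Both cytoplasmic RNA sensors were lower in LNCaP_C4-2B. *IFIH1* had 106 UMIs (3.02 CPM) in LNCaP_C4-2B and 227 UMIs (6.46 CPM) in LNCaP_FGC, just past the 1.5-fold threshold. *DDX58* had 39 UMIs in LNCaP_C4-2B and 140 UMIs in LNCaP_FGC, a ratio of 0.279 (0.190 to 0.400).

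Of the enzymes that act on RNA, 2 were higher, 3 lay within the range and 1 had too few UMIs. *ISG20*, an exonuclease that degrades single-stranded RNA, had 34.1 CPM in LNCaP_C4-2B and 10.0 CPM in LNCaP_FGC, a ratio of 3.40 (3.02 to 3.84). At equal depth *ISG20* was found in 29.6% of LNCaP_C4-2B cells (27.4 to 31.9%) and in 11.0% of LNCaP_FGC cells (9.55 to 12.7%), and the intervals did not overlap. *ADAR*, which edits adenosine to inosine in double-stranded RNA, was the most abundant member in LNCaP_FGC and had 67.3 CPM (64.6 to 70.1) in LNCaP_C4-2B and 141 CPM (137 to 145) in LNCaP_FGC. Its log2 ratio relative to the median gene was -0.584, the closest of all members to the threshold and just inside it. *EIF2AK2*, the kinase PKR that halts translation on double-stranded RNA, had 28.8 CPM in LNCaP_C4-2B and 46.5 CPM in LNCaP_FGC, a ratio of 0.621 (0.574 to 0.672), and lay within the range. Of the oligoadenylate synthetases, which make the activator of RNase L, *OAS3* had 3.84 CPM in LNCaP_C4-2B and 6.29 CPM in LNCaP_FGC. *OAS1* had 24 UMIs in LNCaP_C4-2B and 17 UMIs in LNCaP_FGC and was called higher, but its interval of 0.727 to 2.80 included equality and its log2 ratio was -0.30 after thinning to equal depth. *OAS2* had 0 UMIs in LNCaP_C4-2B and 4 UMIs in LNCaP_FGC. A 0 in 1850 cells allows up to 0.162% of cells with a UMI at this depth and sets no limit on the cells that transcribe the gene.

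The IFIT genes, whose products bind foreign RNA and block its translation, were all lower in LNCaP_C4-2B. *IFIT5* had 41 UMIs in LNCaP_C4-2B and 154 UMIs in LNCaP_FGC, a ratio of 0.266 (0.184 to 0.378). *IFIT3* had 4 UMIs in LNCaP_C4-2B and 27 in LNCaP_FGC, and *IFIT2* had 7 UMIs in LNCaP_C4-2B and 22 in LNCaP_FGC. *IFIT1* had 6 UMIs in LNCaP_C4-2B and 13 in LNCaP_FGC, with an interval of 0.144 to 1.30 that included equality. *MX1*, a GTPase that traps viral components, had 38 UMIs in LNCaP_C4-2B and 41 UMIs in LNCaP_FGC and did not leave the range.

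Of the 5 members that act at membranes, 3 were higher, 1 was lower and 1 lay within the range. *LY6E*, a lipid-anchored surface protein that restricts entry of coronaviruses, was the most abundant member in LNCaP_C4-2B with 101 CPM, against 51.7 CPM in LNCaP_FGC, a ratio of 1.96 (1.85 to 2.07). *BST2* (tetherin), which holds budding virions at the cell surface, had 62 UMIs in LNCaP_C4-2B and 27 UMIs in LNCaP_FGC, a ratio of 2.30 (1.44 to 3.75). Both were higher than the median gene. The neighboring genes *IFITM1*, *IFITM2* and *IFITM3* encode small membrane proteins that block fusion of enveloped viruses and they differed in direction. *IFITM3* had 43.2 CPM in LNCaP_C4-2B and 110 CPM in LNCaP_FGC and was lower, with a ratio of 0.392 (0.369 to 0.416). *IFITM2* had 38.0 CPM in LNCaP_C4-2B and 49.3 CPM in LNCaP_FGC, a ratio of 0.771 (0.717 to 0.828), and lay within the range. *IFITM1* was higher but rested on 14 UMIs in LNCaP_C4-2B and 3 UMIs in LNCaP_FGC. These genes are near copies of each other, and 8.30% of the distinct 90-base windows in the last 500 bases of *IFITM2* transcripts, and 10.3% of those of *IFITM3*, also occurred in another of the 3 genes. These are shares of windows in annotated transcripts and not of reads. The split of reads between the genes is therefore uncertain, and its extent was not tested.

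Of the ISG15 system, *ISG15*, a ubiquitin-like modifier that is attached to proteins and also secreted, had 84.9 CPM in LNCaP_C4-2B and 72.7 CPM in LNCaP_FGC, a ratio of 1.17 (1.11 to 1.23), and was higher than the median gene. *UBE2L6*, the enzyme that conjugates ISG15, had only 26 UMIs in LNCaP_C4-2B and 47 UMIs in LNCaP_FGC and stayed within the range. *SP100*, a component of PML nuclear bodies, was higher with 12.4 CPM in LNCaP_C4-2B and 10.2 CPM in LNCaP_FGC, though its log2 ratio was -0.10 against the LNCaP_FGC cells without *ETV1* described below. *TRIM22* had 3 UMIs in LNCaP_C4-2B and 4 UMIs in LNCaP_FGC, too few for a call.

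The IFI genes again went both ways. *IFI44* had 9 UMIs in LNCaP_C4-2B and 91 UMIs in LNCaP_FGC, a ratio of 0.0989 (0.0438 to 0.196), and its neighbor on chromosome 1, *IFI44L*, had 1 UMI in LNCaP_C4-2B and 25 UMIs in LNCaP_FGC, a ratio of 0.040 (0.000974 to 0.244). *IFI35* was higher, with 170 UMIs in LNCaP_C4-2B and 83 UMIs in LNCaP_FGC, a ratio of 2.05 (1.57 to 2.70). *IFI6*, a protein of mitochondria and the endoplasmic reticulum with antiviral effect, had 8.51 CPM in LNCaP_C4-2B and 9.67 CPM in LNCaP_FGC, and *IFI27* had 31 UMIs in LNCaP_C4-2B and 35 UMIs in LNCaP_FGC. Neither left the range.

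A list of 66 further genes of the pathway was set beside the members. The 9 interferon genes on it (among them *IFNB1*, *IFNA1*, *IFNG* and *IFNL1*) had 0 UMIs in both libraries, and *IRF8* was the only other gene on the list with none in either. Of the 49 with at least 10 UMIs, 6 were higher, 22 were lower and 21 lay within 1.5-fold of the median gene, beside 26.0% higher and 26.4% lower of all genes, and their median log2 ratio relative to it was -0.46. The receptor subunit *IFNAR1* was lower with 37.6 CPM in LNCaP_C4-2B and 98.3 CPM in LNCaP_FGC, and *IFNAR2*, within the range, had 11.0 CPM in LNCaP_C4-2B and 17.7 CPM in LNCaP_FGC. Of the kinases, *JAK2* had 1.88 CPM in LNCaP_C4-2B and 9.50 CPM in LNCaP_FGC, and *TYK2* had 5.41 CPM in LNCaP_C4-2B and 13.2 CPM in LNCaP_FGC, and both were lower.

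The other interferon-stimulated genes of this list were mostly lower in LNCaP_C4-2B, 15 of the 26 tested, against 3 that were higher, beside the 26.4% lower and 26.0% higher of all genes. The guanylate-binding proteins, GTPases induced above all by interferon γ, stood out after their values were seen: *GBP1* had 2 UMIs in LNCaP_C4-2B and 202 UMIs in LNCaP_FGC, and *GBP2* had 10 UMIs in LNCaP_C4-2B and 517 UMIs in LNCaP_FGC. The chemokine gene *CXCL10* had 0 UMIs in LNCaP_C4-2B and 79 UMIs in LNCaP_FGC, of which 45 lay in 4 cells. The adaptor *MAVS* was the lowest sensing gene above 20 CPM, with 26.1 CPM in LNCaP_C4-2B and 75.4 CPM in LNCaP_FGC. Against this direction, *TYMP*, thymidine phosphorylase, had 40.9 CPM in LNCaP_C4-2B and 20.4 CPM in LNCaP_FGC, and *PARP14*, an ADP-ribosyltransferase chosen after its value was seen, had 437 UMIs in LNCaP_C4-2B and 89 UMIs in LNCaP_FGC.

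Cell to cell, the summed members were spread more evenly in LNCaP_C4-2B than in LNCaP_FGC. For this comparison every cell was thinned to 11901 UMIs, which left out 185 LNCaP_C4-2B cells and 227 LNCaP_FGC cells with fewer. The median cell held UMIs of 4 members (highest 10) in LNCaP_C4-2B and of 5 members (highest 16) in LNCaP_FGC. The summed members had a median of 6 UMIs and a highest value of 17 UMIs per cell in LNCaP_C4-2B, and a median of 7 and a highest value of 45 UMIs in LNCaP_FGC. The variance of this sum was 1.11 times its mean in LNCaP_C4-2B, close to the value of 1 that random sampling alone gives, and 1.96 times its mean in LNCaP_FGC. In LNCaP_C4-2B 2 cells had no UMI of any member, and in LNCaP_FGC 6 cells had none.

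**Figure D3:**
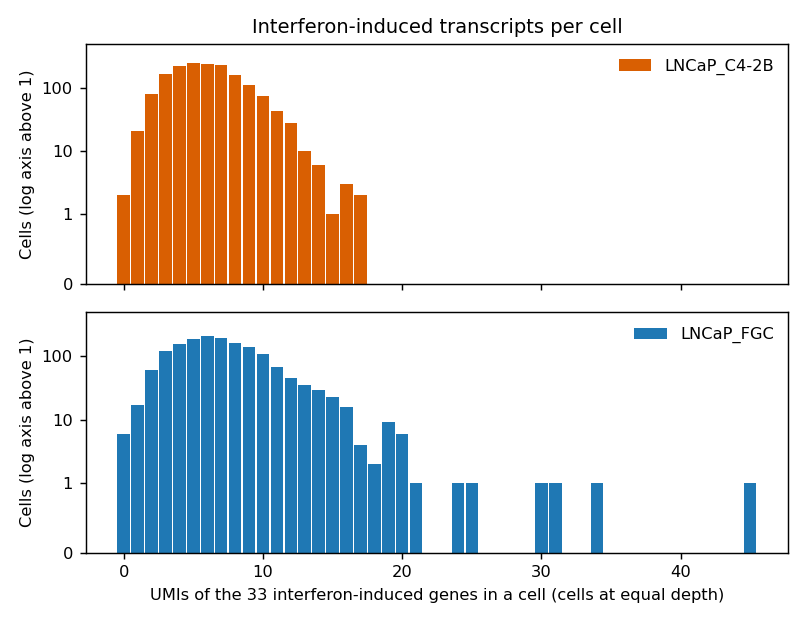
Number of cells (log axis above 1) by the summed UMIs of the 33 members in the cell, with every cell thinned to 11901 UMIs, in LNCaP_C4-2B (top, 1665 cells) and LNCaP_FGC (bottom, 1623 cells). The highest LNCaP_C4-2B cells had 17 UMIs, whereas 24 LNCaP_FGC cells lay above 17 and the highest had 45.

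Single members were uneven in both lines. In LNCaP_C4-2B *BST2* had a variance of 1.52 times its mean, where 3.13% of genes were higher, and *ISG20* had 1.27, against 1.12 for *BST2* and 1.21 for *ISG20* in LNCaP_FGC. The variance of *IFI6* was 1.06 times its mean in LNCaP_C4-2B and 1.77 times its mean in LNCaP_FGC, where 3.11% of genes were higher on this measure. *IFITM3* had 1.02 in LNCaP_C4-2B and 1.56 in LNCaP_FGC, and *ISG15* had 1.15 in LNCaP_C4-2B and 1.33 in LNCaP_FGC. *IFITM2* had 1.05 in LNCaP_C4-2B and 1.45 in LNCaP_FGC, and the median gene had 1.03 in LNCaP_C4-2B and 1.05 in LNCaP_FGC. *ADAR*, the most abundant member there, was even, with 0.986 in LNCaP_C4-2B and 1.06 in LNCaP_FGC. Across cells, the 120 pairs among 16 members with at least 50 UMIs had Pearson's r of at most 0.05 in LNCaP_C4-2B. In LNCaP_FGC the 190 pairs among 20 members had a median r of 0.01, and the pair with the highest was *IFITM2* with *IFITM3* at 0.26, followed by *IFITM3* with *ISG15* at 0.13 and *ISG15* with *IFI6* at 0.12. These values are descriptions over cells of 1 library at equal depth, and apart from the first pair they are weak.

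The LNCaP_FGC cells richest in transcripts of the members did not share 1 profile. They were chosen after their values were seen. Of the 24 cells above 17 UMIs, 17 had no *ETV1* UMI, beside 622 of all 1623 cells at this depth. The sum by which they were chosen includes *IFITM2* and *IFITM3*, which were higher in cells without *ETV1*, as described below. The 10 immune markers had 0 UMIs in all 24. The highest cell, in G1, had 45 UMIs of 13 members, of which *IRF1* gave 12, *ISG15* 9, *IFITM3* 7 and *ISG20* 6, with no *IFI6*. The next had 34 UMIs, with 7 each of *IFITM3* and *IFI6* and 6 of *ISG15*. The cell with UMIs of the most members (16) had 31 UMIs, among them 5 each of *ISG15* and *IFI6*, 3 of *IFIT1*, 2 of *OAS1* and 2 of *IFI44L*, and none of *IFITM3*. In the whole library of 1850 cells at the deposited depth, *IFIT1* had 13 UMIs and *IFI44L* had 25.

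LNCaP_FGC mixes cells with and without *ETV1*, whereas LNCaP_C4-2B had 0 *ETV1* UMIs. This gene is an ETS oncogene, and the paper reports its rearrangement in every LNCaP strain examined, both lines here included. At equal depth 622 LNCaP_FGC cells had no *ETV1* UMI and 743 had at least 2, and 258 cells with 1 UMI were left out. A cell without a UMI may still transcribe the gene at a low level. Members were more often higher in cells without *ETV1*: of 29 with at least 10 UMIs, 11 were at least 1.5-fold higher in cells without *ETV1*, 3 were lower and 15 lay between, against 10.7% higher and 6.42% lower among 14806 genes. The members' median log2 ratio was 0.38, against 0.08 for all genes. The members summed to 698 CPM in cells without *ETV1* and 529 CPM in cells with it.

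The IFITM genes differed most among the abundant members. *IFITM2* had 576 UMIs (77.8 CPM) in cells without *ETV1* and 191 UMIs (21.6 CPM) in cells with it, a ratio of 3.60 (3.05 to 4.27). *IFITM3* had 140 CPM in cells without *ETV1* and 86.7 CPM in cells with it, a ratio of 1.61 (1.47 to 1.77), and with 1 *ETV1* UMI as the minimum its log2 ratio was 0.55, under the threshold of 1.5-fold. *IFITM1* had 1 UMI in cells without *ETV1* and 0 in cells with it. The level of *IFITM2* followed the *ETV1* count, with 77.8 CPM in cells with 0 *ETV1* UMIs, 53.1 CPM with 1, 25.5 CPM with 2 to 3 and 16.5 CPM with 4 or more. The share of cells with an *IFITM2* UMI was 56.4% (52.4 to 60.4%) at 0 *ETV1* UMIs and 15.1% (11.4 to 19.4%) at 4 or more, so the intervals lay far apart.

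**Figure D4:**
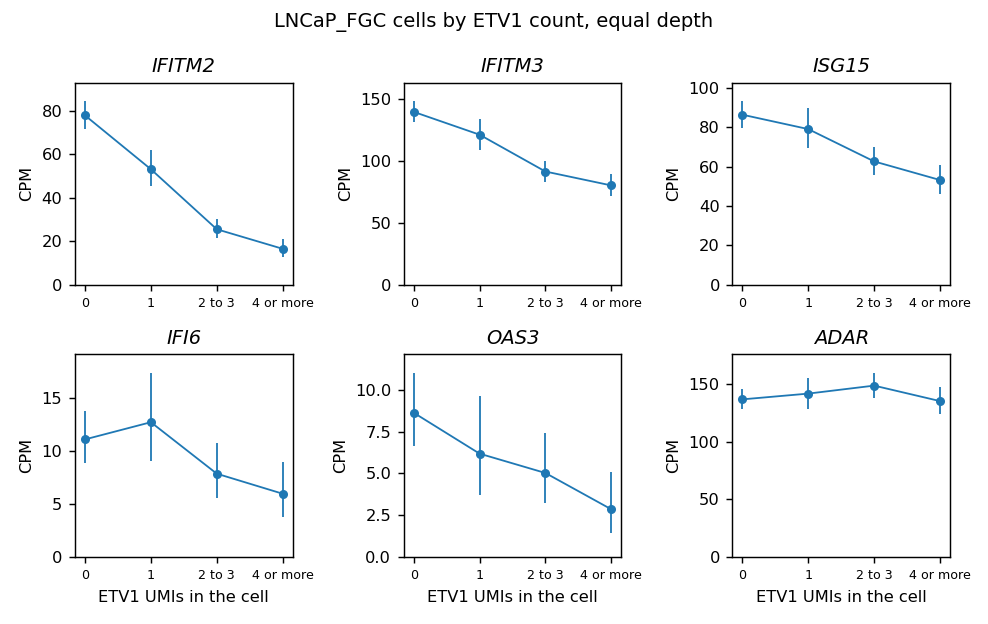
Level in CPM of 6 members in LNCaP_FGC cells with 0, 1, 2 to 3 and 4 or more ETV1 UMIs (622, 258, 418 and 325 cells, each thinned to 11901 UMIs), with exact 95% Poisson intervals. IFITM2 is at 77.8 CPM at 0 ETV1 UMIs and 16.5 CPM at 4 or more, and ADAR is at 137 CPM at 0 and 135 CPM at 4 or more.

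Other members past 1.5-fold with at least 50 UMIs were *OAS3*, *IFI6* and *DDX58*. *OAS3* had 8.65 CPM in cells without *ETV1* and 4.07 CPM in cells with it, a ratio of 2.12 (1.39 to 3.29). This call was lost with another random thinning, where the log2 ratio was 0.39 in place of 1.09, and at the deposited depth, where it was 0.56. By phase, in the first thinning only, the difference in *OAS3* was not seen in S cells. There *OAS3* had 16 UMIs in 161 cells without *ETV1* and 17 UMIs in 188 cells with it. In G1 cells it had 16 UMIs without and 4 with *ETV1*, a ratio of 5.40 (1.74 to 22.2). In G2M cells it had 32 UMIs without and 15 with *ETV1*, a ratio of 2.18 (1.15 to 4.34). *IFI6* had 11.1 CPM in cells without *ETV1* and 7.01 CPM in cells with it, a ratio of 1.58 (1.12 to 2.23). The *IFI6* call was lost with another thinning (log2 ratio 0.49), in G1 cells (0.49) and with 1 *ETV1* UMI as the minimum (0.39). *DDX58* had 32 UMIs in cells without *ETV1* and 23 UMIs in cells with it, with an interval of 0.943 to 2.97 that included equality, and in G1 cells alone its log2 ratio was -0.069. The other higher members, *OAS1*, *IFIT1*, *IFIT3*, *IFI27*, *IFI44* and *IFI44L*, rested on 10 to 49 UMIs, and at the deposited depth *IFIT3* was lower (log2 ratio -0.19). *IFI44* had 31 UMIs in cells without *ETV1* and 18 in cells with it. The 3 lower members were *MX1*, with 6 UMIs in cells without *ETV1* and 14 in cells with it, *BST2*, with 3 UMIs without and 9 with it, and *IFI35*, with 11 UMIs without and 25 with it. Each had an interval that included equality, and *MX1* was higher with another random thinning.

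*ISG15* stopped just short of the threshold, with 86.5 CPM in cells without *ETV1* and 58.6 CPM in cells with it, a ratio of 1.48 (1.31 to 1.66). *ADAR* did not follow *ETV1*, with 137 CPM in cells without *ETV1* and 143 CPM in cells with it, nor did *ISG20*, with 10.5 CPM in cells without *ETV1* and 10.2 CPM in cells with it. None of the 6 signaling members passed 1.5-fold, and *IRF3* had 44.7 CPM in cells without *ETV1* and 44.9 CPM in cells with it. Of the 66 further pathway genes, 42 were tested and 9 were higher and 1 lower, beside 10.7% higher and 6.42% lower of all genes. Those higher included *GBP1* with 66 UMIs in cells without *ETV1* and 23 in cells with it, *GBP2* with 146 UMIs without and 92 with it, and *HERC6*, of the family of the ISG15 ligase, with 91 UMIs without and 57 with it.

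The 2 groups of cells differed in other ways. Mitochondrial transcripts took 6.48% of UMIs in cells without *ETV1* and 6.10% in cells with it. *MALAT1*, a nuclear RNA, had 16487 CPM in cells without *ETV1* and 25582 CPM in cells with it. *KLK3*, which encodes prostate-specific antigen, had 207 CPM in cells without *ETV1* and 1293 CPM in cells with it, and the part of these differences in the members' values was not tested. The immune markers summed to 4 UMIs in cells without *ETV1* and 3 UMIs in cells with it. Cell cycle phase differed little, with 40.8% in G1 without *ETV1* and 46.2% with it, and the *IFITM2* ratio was 4.02 (3.11 to 5.24) in G1 cells, 3.33 (2.42 to 4.64) in S cells and 3.30 (2.45 to 4.51) in G2M cells.

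The place of LNCaP_C4-2B among LNCaP_FGC cells depended on their *ETV1* status for several members. For *IFITM2* LNCaP_C4-2B had 39.0 CPM at equal depth, below the 77.8 CPM of LNCaP_FGC cells without *ETV1* and above the 21.6 CPM of those with it. Set against LNCaP_FGC cells without *ETV1* alone, a comparison added after the data were seen, 7 members were higher and 13 were lower of 29, beside 25.1% and 24.9% of all genes. Against cells with *ETV1* alone, also added afterward, *IRF7*, *OAS1*, *ISG20*, *IFITM2*, *BST2*, *LY6E*, *ISG15*, *SP100*, *IFI6*, *IFI27* and *IFI35* were higher. Of these, *OAS1*, *BST2*, *IFI6* and *IFI27* had intervals that included equality. *IRF9*, *IRF1*, *IFIH1*, *DDX58*, *IFIT5*, *ADAR* and *IFI44* were lower there. The share of all genes was not taken for this comparison. *IFITM3* had 44.1 CPM in LNCaP_C4-2B and 140 CPM in LNCaP_FGC cells without *ETV1*, a wider gap than over all cells. LNCaP_FGC cells with *ETV1* had 86.7 CPM of *IFITM3*, and against them it lay within the range. *ISG20* remained higher with 33.1 CPM in LNCaP_C4-2B and 10.5 CPM in LNCaP_FGC cells without *ETV1*. *ISG15* had 85.9 CPM in LNCaP_C4-2B and 86.5 CPM in these cells and was no longer called, above the 58.6 CPM of cells with *ETV1*. *SP100* and *IFI6* in LNCaP_C4-2B also lay between the 2 groups of LNCaP_FGC cells, with 12.1 CPM against 13.0 CPM without and 9.16 CPM with *ETV1* for *SP100*, and 8.58 CPM against 11.1 CPM without and 7.01 CPM with *ETV1* for *IFI6*.

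By proliferation, few members passed 1.5-fold. *OAS3*, *ISG20* and *UBE2L6* were called in the same direction in both lines, the last on few UMIs. Cells of each line were ranked by the summed UMIs of 30 proliferation genes. Those with the highest sums were set against as many with the lowest, 555 each in LNCaP_C4-2B and 541 each in LNCaP_FGC. In LNCaP_C4-2B 0% of the highest group and 99.8% of the lowest were in G1, and in LNCaP_FGC 0% and 100%. The words proliferating and nonproliferating name these groups, so the contrast is one of S and G2M cells with G1 cells. It does not show that the lowest group had left the cell cycle. In LNCaP_C4-2B 3 of 24 members were higher in proliferating cells and 4 were lower, beside 19.1% higher and 11.5% lower of all genes. In LNCaP_FGC 3 of 25 were higher and 4 were lower, beside 17.6% higher and 12.6% lower of all genes, so that the counts lay near the background in both lines. The members summed to 491 CPM in the proliferating and 533 CPM in the nonproliferating LNCaP_C4-2B cells, and to 609 CPM in the proliferating and 606 CPM in the nonproliferating LNCaP_FGC cells. The groups also differed in *MALAT1*, with 13101 CPM in proliferating and 20627 CPM in nonproliferating LNCaP_C4-2B cells and with 15599 CPM in proliferating and 32992 CPM in nonproliferating LNCaP_FGC cells. *KLK3* had 2472 CPM in proliferating and 3487 CPM in nonproliferating LNCaP_C4-2B cells, and 572 CPM in proliferating and 1135 CPM in nonproliferating LNCaP_FGC cells. Mitochondrial transcripts took 7.93% of UMIs in proliferating and 8.71% in nonproliferating LNCaP_C4-2B cells, and 5.72% in proliferating and 6.998% in nonproliferating LNCaP_FGC cells, and the part of these differences in the members' values was not tested.

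*OAS3* was higher in proliferating cells. It had 5.60 CPM in proliferating and 1.51 CPM in nonproliferating LNCaP_C4-2B cells, a ratio of 3.70 (1.80 to 8.34). In LNCaP_FGC it had 10.3 CPM in proliferating and 2.02 CPM in nonproliferating cells, a ratio of 5.08 (2.77 to 10.0). By phase, *OAS3* had 2.05 CPM in G1, 5.14 CPM in S and 4.46 CPM in G2M cells of LNCaP_C4-2B, and 2.60 CPM in G1, 8.16 CPM in S and 9.58 CPM in G2M cells of LNCaP_FGC. G1 was the low phase in both lines, and S and G2M did not differ beyond their intervals.

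*ISG20* had the opposite order. It had 22.7 CPM in proliferating and 51.2 CPM in nonproliferating LNCaP_C4-2B cells, a ratio of 0.444 (0.364 to 0.539). In LNCaP_FGC it had 7.61 CPM in proliferating and 16.6 CPM in nonproliferating cells, a ratio of 0.458 (0.320 to 0.648). By phase, *ISG20* had 45.1 CPM in G1, 17.9 CPM in S and 25.8 CPM in G2M cells of LNCaP_C4-2B, so G1 was its high phase. The excess of *ISG20* in LNCaP_C4-2B held within G1, where LNCaP_FGC had 13.6 CPM.

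**Figure D5:**
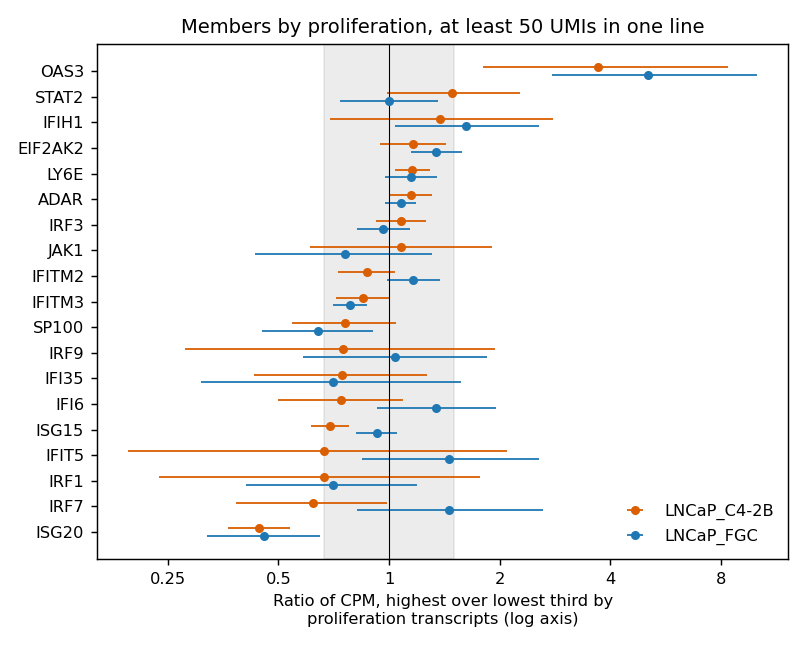
Ratio of CPM in the most over the least proliferating cells of LNCaP_C4-2B (orange) and LNCaP_FGC (blue), on a log axis, with exact 95% intervals, for the 19 members with at least 50 UMIs in one line and at least 10 in the other. The gray band lies within 1.5-fold of equality; OAS3 lies to its right and ISG20 to its left in both lines.

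The remaining calls rested on fewer UMIs or depended on the setting. *IRF7* was lower in proliferating LNCaP_C4-2B cells, with a ratio of 0.620 (0.383 to 0.990), but another random thinning gave a log2 ratio of -0.46 in place of -0.69, inside the threshold. In LNCaP_FGC *IFIH1* was higher in proliferating cells, with a ratio of 1.62 (1.04 to 2.56), and *SP100* was lower, with 0.640 (0.451 to 0.903). Set as S and G2M cells against G1 cells, both lost the call, with log2 ratios of 0.49 for *IFIH1* and -0.51 for *SP100*, and another thinning gave 0.41 for *IFIH1*. *UBE2L6* was called higher on 7 UMIs in proliferating and 4 UMIs in nonproliferating LNCaP_C4-2B cells, and on 12 UMIs in proliferating and 5 UMIs in nonproliferating LNCaP_FGC cells, where another thinning gave a log2 ratio of 0.17 in place of 1.26. *IRF1*, with 8 UMIs in proliferating and 12 in nonproliferating cells, and *IFIT5*, with 6 and 9 UMIs in these groups, were called lower in LNCaP_C4-2B at exactly 1.5-fold. *BST2* was called lower in LNCaP_FGC on 4 UMIs in proliferating and 6 UMIs in nonproliferating cells, and another random thinning turned its direction. *IFITM2* had a ratio of 0.869 (0.726 to 1.04) in LNCaP_C4-2B and 1.16 (0.988 to 1.37) in LNCaP_FGC and was not called. Some members that were not called had intervals clear of equality. In LNCaP_C4-2B these were *ISG15* at 0.690 (0.612 to 0.777), *ADAR* at 1.15 (1.01 to 1.31) and *LY6E* at 1.16 (1.04 to 1.29). In LNCaP_FGC they were *EIF2AK2* at 1.35 (1.15 to 1.58) and *IFITM3* at 0.783 (0.704 to 0.870).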

How the data were processed

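Single-cell RNA-Seq counts of 1 LNCaP_C4-2B library and 1 LNCaP_FGC library were analyzed. Deposited were UMI counts, 1 value for each gene in each cell. Per the submitters' processing notes, Cell Ranger 6.0 and Seurat 5.011 were used with GRCh38. The authors filtered cells by genes, reads, hemoglobin, ribosomal and mitochondrial share and doublet score, drew 1850 cells per line and down-sampled both lines to the same mean, so totals carry no information on RNA content. No further cell filter or doublet caller was applied.

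UMIs were summed over cells, scaled to CPM and compared as ratios with exact conditional intervals (95%, Clopper-Pearson), and levels had exact Poisson intervals, all for counting error only. A gene needed at least 10 UMIs over both groups and was called at 1.5-fold, from the median gene between lines and from equality within a line. Comparisons of cells used counts thinned to 11901 UMIs per cell, percentile 10 of LNCaP_C4-2B. Phases came from Seurat 5.3.0 with 43 S and 54 G2M genes, TMM factors from edgeR 4.0.16, and all else from Python 3.11.15 with numpy 2.4.6 and scipy 1.17.1. With 1 library per line and cells not being replicates, no p-value was computed. The ratio and call were tested on simulated Poisson counts, and recovery of the calls only for genes with a mean of at least 100 UMIs. Calls on fewer UMIs, and counts that spread more than Poisson counts, were not covered.

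All members are accounted for. Members that reached 20 CPM in either library were named with an interval, and within a line those past 1.5-fold with at least 50 UMIs. Of the pathway genes, TYK2, JAK2, IFNAR1, IFNAR2 and the extremes above 20 CPM were named, and a result the rule would name is not reported here. Members, lists and rules were chosen with earlier results of these data known. Alternatives covered scaling, the UMI minimum, depth, phase, the ETV1 threshold, the fraction of cells compared by proliferation and the random seed. All 33 symbols had a position in GENCODE release 44.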

Additional observations from a re-analysis of the deposited data

Results flagged for a closer look

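*IFI27* differed in direction by proliferation between the lines. The ratio of proliferating over nonproliferating cells was 4 in LNCaP_C4-2B, from 8 UMIs in proliferating and 2 in nonproliferating cells, and 0.556 in LNCaP_FGC, from 5 UMIs in proliferating and 9 in nonproliferating cells. Both intervals included equality (0.798 to 38.7 in LNCaP_C4-2B and 0.146 to 1.85 in LNCaP_FGC), and the difference between the lines was not tested.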

How the results depend on the processing

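No paired analysis was possible because each line had 1 library. Calls between the lines are relative to the median gene, so a scaling factor cancels. The counts of 10 higher and 11 lower could therefore not change with the scalings tried, which are no check of them. With at least 100 UMIs required, 6 members were higher and 8 were lower of 21 tested between the lines. By *ETV1* status 4 were higher and 0 lower of 13 tested. By proliferation 0 were higher and 1 lower of 11 tested in LNCaP_C4-2B, and 0 were higher and 2 lower of 11 tested in LNCaP_FGC. In G1 cells alone, 6 were higher and 1 was lower by *ETV1* status. By proliferation in LNCaP_FGC, S and G2M cells against G1 cells gave 7 higher and 1 lower. The groups with the highest and lowest proliferation sums gave 3 higher and 4 lower. The share of all genes was not taken under these settings, so their counts have no background. The cause of these shifts was not tested.

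Called members changed direction as follows. Between the lines the log2 ratio of *OAS1* was -0.30 at equal depth, and against LNCaP_FGC cells without *ETV1* it was -1.10 for *OAS1*, -0.0094 for *ISG15* and -0.10 for *SP100*. By *ETV1* status it was -0.19 for *IFIT3* at the deposited depth, -0.069 for *DDX58* in G1 cells and 0.96 for *MX1* with another seed. By proliferation in LNCaP_FGC it was 0.42 for *BST2* with another seed. Members that were not called also changed sign, such as *IRF7* by *ETV1* status (0.50, and -0.79 in G1 cells) and *STAT2* by proliferation in LNCaP_C4-2B (0.57, and -0.17 with another seed). The log2 ratio of *OAS3* by proliferation in LNCaP_FGC was 2.34, and 3.39 in cells with at least 2 *ETV1* UMIs alone. Depth limits the members under 1 CPM, for which 1 UMI more or less in a group moves the ratio.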

Other observations

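*IRF1* was the most unevenly spread member in LNCaP_FGC, with a variance of 3.17 times its mean at equal depth, a value exceeded by 0.980% of genes. At the deposited depth its 161 UMIs lay in 104 cells, and 4 cells held 38 of them (15, 11, 6 and 6 UMIs). All 4 also had a *CXCL10* UMI, although only 23 of the 1850 cells had any, and together they held 26 of the 79 *CXCL10* UMIs. These 4 cells had 0 UMIs of *PTPRC*, *CD14*, *LYZ* and *HLA-DRA* and were in G1 (3 cells) or S (1 cell). They were chosen after their values were seen. Without them the *IRF1* ratio between the lines was 0.349 (0.241 to 0.497), in place of 0.267 (0.186 to 0.376). In LNCaP_C4-2B the highest *IRF1* count in a cell was 3 UMIs.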
